A study of Drosophila melanogaster with 7 samples.

Results

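Nuclear RNA of Kenyon cells was set against nuclear RNA of all neurons in the adult Drosophila head. The comparison rested on the 2 OK107 libraries, called a and b, and the 1 R57C10 library, which were chosen by the names of their columns and make up 3 of the 6 libraries in the gene table. It took in all 15551 fly genes of that table, with the spike-in rows left out. OK107 nuclei came from adult heads in which OK107-GAL4 drove unc84-GFP, a tagged nuclear membrane protein, in Kenyon cells for the most part. R57C10 nuclei came from adult heads in which R57C10-GAL4 drove the same tag in every mature neuron, so Kenyon cells are among the neurons of that library too. Both groups therefore carried a GAL4 driver and unc84-GFP, and both were pools of frozen heads from which tagged nuclei were caught on antibody-coated beads. The labels list 7 samples, of which 2 are of R57C10, and the columns do not say which of those is the one in the table. The other 3 libraries are of Tdc2-GAL4 nuclei, mainly octopaminergic neurons (a and b), and of the whole dissected brain without any tag.

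Kenyon cells are the principal intrinsic neurons of the mushroom body, the centre of the fly brain for olfactory learning. Their dendrites meet olfactory projection neurons in the calyx, and their axons run in the lobes, where dopaminergic neurons alter their output through cyclic AMP signalling. Genes known for high expression in adult Kenyon cells include the eye-selector homologues ey and toy, the nuclear factor dac, the cyclase rut, the kinase subunit Pka-C1 and the peptide gene sNPF.

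Levels are given in FPKM, a level scaled by transcript length and sequencing depth that the authors estimated. Steps between low values put 1 FPKM on a transcript of 1 kilobase at about 27.3 and 23.8 reads in OK107 a and b and 35.6 reads in R57C10. At least 1 FPKM was reached by 9388 and 9460 genes in OK107 a and b and by 8774 genes in R57C10. The column names carry the same date tag, 111214, for both OK107 libraries and another, 120202, for R57C10, so no date holds both groups. Spike-in species had values above 0 in OK107 b and R57C10 but not in OK107 a. The 2 OK107 libraries were close: the SD of their log2 ratios over the genes tested was 0.176. Of these genes 99.9% lay within 2-fold. The SD was 0.386 for the Tdc2 pair, in which a carries the date tag 111214 and b the tag 120202. Whether libraries of a group came from separate sets of flies is not stated, so p-values measure the spread between these samples only.

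Differences were tested with limma on log2(FPKM + 1) over 9585 genes, and fold changes below are OK107 over R57C10 on that scale, which understates the change of genes at low levels. The Tdc2 libraries entered this fit to help estimate the spread, since R57C10 has no replicate. A gene passed at a Benjamini-Hochberg adjusted p under 0.05. Single-gene exact permutation of 2 libraries against 1 has 3 arrangements and cannot go below p = 0.333, so no such test is given.

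The markers of Kenyon cells were higher in OK107 nuclei, with ey at the head of the list. The gene ey, a Pax6 homologue, had 248 and 259 FPKM in OK107 a and b, against 35.9 FPKM in R57C10 (log2 difference 2.78 ± 0.15 SE, adjusted p = 0.0021). OK107 is itself an insertion at the ey locus, and the part this has in the level of ey was not tested. Of 20 listed Kenyon cell markers, all of them tested, 16 were higher in OK107 and 1 was lower, where 21.4% of all genes tested were higher, 3.56% were lower and 24.9% passed in either direction. Fewer nuclei of a cell type and less RNA per nucleus cannot be told apart in any of these libraries.

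The vesicular transporter gene CG10251, known as portabella, had 54.5 and 59.4 FPKM in the OK107 libraries, against 10.8 FPKM in R57C10. For the nuclear receptor gene Hr51 the levels were 23.4 and 24.2 FPKM in OK107 and 5.23 FPKM in R57C10, and for the peptide gene sNPF they were 656 and 682 FPKM in OK107 and 184 FPKM in R57C10. Both OK107 libraries were more than 3-fold above R57C10 for each of these genes, and the difference passed in all 15 alternative fits that tested them. The dopamine receptor gene DopR2 had 73.0 and 68.1 FPKM in OK107 nuclei and 23.9 FPKM in R57C10 nuclei, and rut, whose product is the cyclase that calcium and calmodulin stimulate, had 247 and 236 FPKM in OK107 and 103.9 FPKM in R57C10. The transcription factor gene dac had 46.7 and 46.4 FPKM in OK107 and 16.1 FPKM in R57C10. CG10251, Hr51, sNPF, DopR2, rut, dac and ey are the 7 markers whose call held in every fit that tested them. The median difference over the list lay 0.64 above the median of all genes tested on the log2 scale.

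Other markers were higher by a smaller step. The RNA-binding gene mub had 1036 and 1041 FPKM in OK107, against 491 FPKM in R57C10, and Pka-C1 had 662 and 615 FPKM in OK107, against 298 FPKM in R57C10. The second Pax6 homologue toy had 296 and 306 FPKM in OK107 and 159 FPKM in R57C10. Each passed at an adjusted p between 0.0065 and 0.0086, but the calls of mub and toy were lost without either OK107 library and that of Pka-C1 without OK107 a. Leaving out OK107 a brought the count of markers to 7 higher and 0 lower, leaving out OK107 b brought it to 8 higher and 0 lower, and median centring brought it to 10 higher and 1 lower. The lower marker was chinmo, a temporal identity gene of mushroom body neurons, with 68.9 and 73.0 FPKM in OK107 and 108 FPKM in R57C10 (adjusted p = 0.030), and its call too was lost without either OK107 library. The axonal guidance factor gene trio and the zinc finger gene mamo did not pass, at 181 and 169 FPKM for trio in OK107 and 171 FPKM in R57C10, and at 69.6 and 73.7 FPKM for mamo in OK107 and 59.7 FPKM in R57C10. Of 10 genes known to differ between Kenyon cell subtypes, 7 of which are on the list above as well, 6 were higher and 1 lower, against 2 and 2 after median centring, 2 and 0 without OK107 a or OK107 b, and 7 and 2 without Tdc2 a or Tdc2 b.

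Genes of neurons in general were below R57C10 in both OK107 libraries for all 8 tested members, where this was so for 23.0% of all genes tested. The neuronal RNA-binding gene elav had 223 and 220 FPKM in OK107, against 277 FPKM in R57C10, and the synaptobrevin gene n-syb had 976 and 934 FPKM in OK107, against 1096 FPKM in R57C10, and neither passed. Among 8 tested pan-neuronal genes 1 was lower, the syntaxin gene Syx1A with 279 and 281 FPKM in OK107 and 420 FPKM in R57C10 (adjusted p = 0.022), and none was higher. After median centring all 8 passed as lower, with quantile normalization 2 did, and without OK107 a or OK107 b none did. Without Tdc2 a or Tdc2 b, and with OK107 and R57C10 alone, 7 passed as lower, and 5 did with date tag as a term. The octopamine genes Tdc2 and Tbh were low in both groups beside the Tdc2 libraries. Tdc2 had 2.77 and 2.92 FPKM in OK107 and 3.01 FPKM in R57C10, while Tbh had 16.6 and 16.9 FPKM in OK107 and 37.1 FPKM in R57C10.

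**Figure D1:**
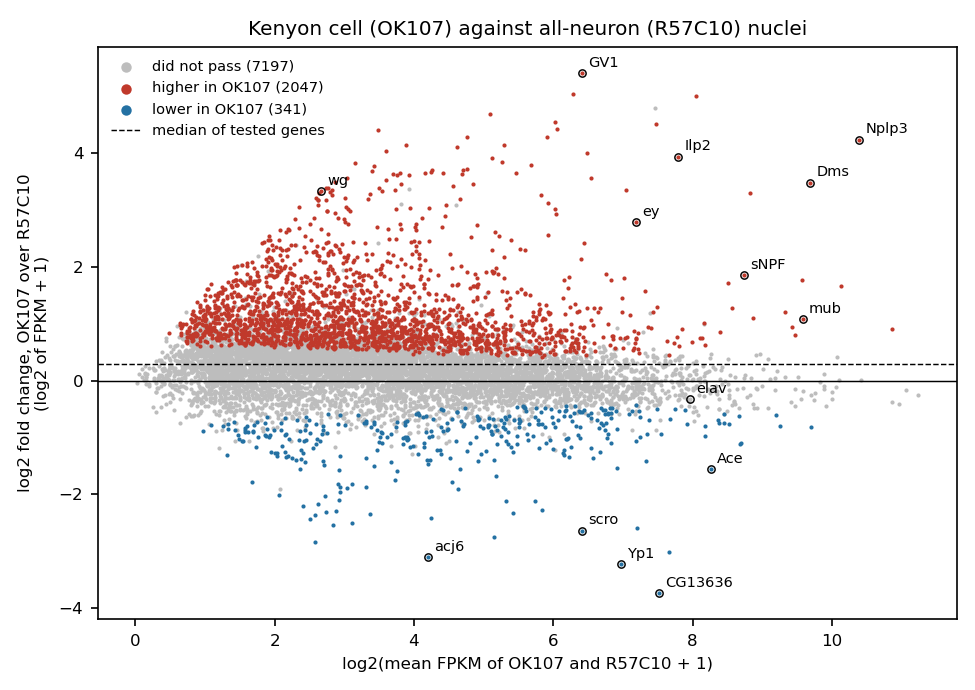
Each point is 1 of 9585 genes tested, with the log2 of its mean level (FPKM + 1, OK107 and R57C10 weighted equally) across and the log2 fold change of OK107 over R57C10 upward. Red genes were higher in OK107 (2047), blue genes lower (341) and grey genes did not pass (7197). The dashed line is the median of all genes tested, at 0.296, and after median centring of the libraries the split became 792 higher and 1562 lower.

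Across all genes 2388 passed, of which 2047 were higher in OK107 and 341 were lower. These are 21.4% and 3.56% of the genes tested, the shares to set beside the counts of each gene list. At least 2-fold differences on the fitted scale were found for 1013 genes higher in OK107, or 10.6%, and for 133 genes lower, or 1.39%. At least 4-fold differences were found for 219 genes higher (2.28%) and 25 lower (0.261%), and at least 8-fold for 74 higher (0.772%) and 4 lower (0.0417%). The balance between directions depended on how libraries were scaled, as shown by the plot of all genes. The median gene was 0.296 higher in OK107 on the log2 scale, or 1.23-fold, in the FPKM as deposited. That median moved to -0.15 with median centring, where 792 genes were higher and 1562 lower, and to -0.052 with quantile normalization, where 759 were higher and 663 lower. Leaving out OK107 a gave 478 higher and 66 lower, and leaving out OK107 b gave 413 higher and 68 lower. Leaving out Tdc2 a gave 4558 higher and 1148 lower, and leaving out Tdc2 b gave 4568 higher and 1144 lower. A fit with date tag as a term called 3061 genes higher and 487 lower. Of the calls, 452 of those higher and 58 of those lower held in every fit that tested the gene, and a gene below the filter of a fit was not tested in it.

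Presence and absence were counted at fixed levels of the FPKM as deposited. The counts were not repeated after rescaling, so the 1.23-fold median difference given above enters them. Among 14972 genes with a value in all 3 libraries, 8522 reached 1 FPKM in each. At least 1 FPKM in both OK107 libraries and less in R57C10 was found for 718 genes, and the reverse for 126 genes. With at least 5 FPKM asked on the higher side, the counts were 88 and 6. At 20 FPKM they were 3 and 0. The 3 genes were CG1136, CG16786 and CG18302, with 21.7 and 21.9 FPKM for CG1136 in OK107 and 0.394 FPKM in R57C10, and 27.5 and 26.7 FPKM for CG18302 in OK107 and 0.589 FPKM in R57C10. For CG16786 the levels were 22.03 and 24.1 FPKM in OK107 and 0.926 FPKM in R57C10, and its call was lost without either OK107 library.

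Many of the largest differences were of genes of the cuticle and its chitin, which were far higher in OK107 nuclei. Gasp, a chitin-binding protein gene of tracheae and cuticle, had 141 and 160 FPKM in OK107, against 3.56 FPKM in R57C10 (log2 difference 5.05 ± 0.55 SE, adjusted p = 0.0069). The adult cuticle protein gene Acp1 had 311 and 366 FPKM in OK107 and 13.8 FPKM in R57C10. The uncharacterised gene CG7203 had 466 and 559 FPKM in OK107 and 14.9 FPKM in R57C10. Both OK107 libraries were thus more than 20-fold above R57C10 for all 3 genes. The chitin deacetylase gene serp had 72.9 and 72.8 FPKM in OK107 and 3.19 FPKM in R57C10, and its relative verm had 66.1 and 62.5 FPKM in OK107 and 3.31 FPKM in R57C10. The chitin synthase gene kkv had 9.13 and 9.67 FPKM in OK107 and 0.422 FPKM in R57C10. Of 10 tested cuticle and tracheal markers 7 were higher and 0 lower, beside 21.4% and 3.56% of the genes tested. On the log2 scale the list median exceeded the median over every tested gene by 3.10. This list was chosen with earlier results of these data known. Its members Gasp, CG7203, Acp1, serp and verm are among the 20 largest differences. The counts and the median therefore describe the list and are no separate support for a cuticle pattern.

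The Tdc2 libraries, which enter the spread and carry different date tags, differed from each other for these genes. Acp1 had 7.41 FPKM in Tdc2 a and 53.0 FPKM in Tdc2 b, and serp had 4.19 FPKM in Tdc2 a and 29.0 FPKM in Tdc2 b. Without OK107 a or OK107 b only Gasp of the 10 passed, quantile normalization left 3 higher and 1 lower, no filter on low values left 2 higher, and spike-in status as a term left 4 higher. The tracheal regulator gene trh did not pass, with 2.12 and 2.16 FPKM in OK107 and 2.94 FPKM in R57C10, and the tracheal receptor gene btl was under 0.5 FPKM in all 3 libraries. The summed level of all 12 listed members was 1097 and 1262 FPKM in OK107, 46.8 FPKM in R57C10, 60.2 and 268 FPKM in Tdc2 a and b, and 36.7 FPKM in the whole brain. The part of another cell type in this result was not tested.

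Cuticular protein genes, taken by their symbols after their values had been seen, showed the same pattern. 28 of the 77 such genes were tested, and 17 were higher and 0 lower, beside 21.4% and 3.56% of all genes. The filter also admits genes that reach 1 FPKM in the OK107 pair alone. Median centring left 14 higher and 2 lower, quantile normalization left 12 higher and 1 lower, and 7 were higher without OK107 a or OK107 b. With no filter on low values 72 were tested, with 15 higher and 0 lower. The median log2 difference was then 0.256, against 2.09 with the filter. The summed level of the 28 genes was 679 and 742 FPKM in OK107, 97.4 FPKM in R57C10 and 59.9 FPKM in the whole brain. Cpr64Aa, whose call held throughout the alternative fits, had 34.3 and 37.3 FPKM in OK107 and 4.64 FPKM in R57C10. The gene of the elastic cuticle protein resilin had 5.09 and 4.81 FPKM in OK107 and 0.105 FPKM in R57C10, and its call held in the 12 alternative fits that tested it. The zona pellucida domain gene pio had 26.5 and 28.7 FPKM in OK107 and 3.21 FPKM in R57C10. Resilin and pio were also picked after their values were seen.

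**Figure D2:**
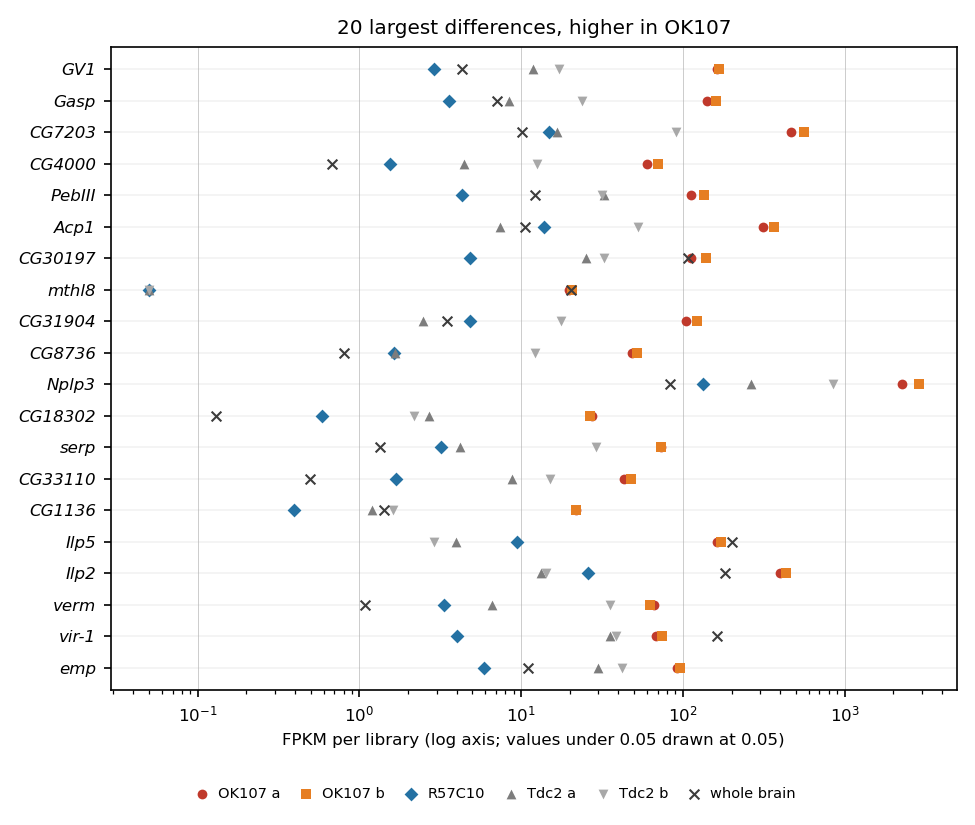
Level in FPKM (log axis) of the 20 genes with the largest differences higher in OK107, 1 row a gene, with 1 marker a library: OK107 a and b, R57C10, Tdc2 a and b and the whole brain. The OK107 markers nearly coincide and lie right of R57C10 in every row. The whole brain is near OK107 or above it for CG30197, mthl8, Ilp5 and vir-1, and near or below R57C10 for most cuticle genes.

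Both OK107 libraries were at least 2-fold above R57C10 for 16.9% of all genes tested. Beyond cuticle genes, the 20 largest differences held genes of other kinds. GV1 stood first, with 163 and 168 FPKM in OK107, against 2.89 FPKM in R57C10 (log2 difference 5.42 ± 0.22 SE, adjusted p = 0.0014). PebIII, named for its protein in the ejaculatory bulb, had 112 and 136 FPKM in OK107 and 4.30 FPKM in R57C10. The peptide precursor gene Nplp3 had 2251 and 2868 FPKM in OK107 and 133 FPKM in R57C10, which made it the most abundant gene of the OK107 libraries on average. In all 3 genes every OK107 value was more than 15-fold above the R57C10 value. The scavenger receptor gene emp had 92.6 and 96.4 FPKM in OK107 and 5.87 FPKM in R57C10, and vir-1, a gene induced by viruses, had 67.8 and 73.9 FPKM in OK107 and 3.99 FPKM in R57C10. The receptor gene mthl8 had 19.8 and 20.7 FPKM in OK107 and was listed at 0 in R57C10 and in both Tdc2 libraries.

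Genes known only by number made up 8 of these 20. CG4000 had 59.97 and 69.7 FPKM in OK107 and 1.55 FPKM in R57C10, CG30197 had 112 and 139 FPKM in OK107 and 4.81 FPKM in R57C10, and CG33110 had 43.4 and 47.7 FPKM in OK107 and 1.67 FPKM in R57C10. CG31904 had 105 and 122 FPKM in OK107 and 4.82 FPKM in R57C10, and CG8736 had 48.6 and 52.2 FPKM in OK107 and 1.64 FPKM in R57C10. Both OK107 libraries lay above R57C10 for each, as the rule that picked the 20 required. Of the 20 largest, 12 kept their call without OK107 a and 12 without OK107 b. The calls lost in both cases were of CG7203, Acp1, CG31904, CG8736, Nplp3, serp and verm, and mthl8 was then below the filter. In these 2 fits the Tdc2 pair alone gives the spread.

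Several peptides of neurosecretory cells were also much higher in OK107 nuclei than in R57C10 nuclei. The insulin-like peptide gene Ilp2 had 396 and 434 FPKM in OK107, against 26.0 FPKM in R57C10 (log2 difference 3.94 ± 0.12 SE, adjusted p = 0.0014). Its relatives followed, with 164 and 176 FPKM for Ilp3 in OK107 and 13.5 FPKM in R57C10, and with 163 and 173 FPKM for Ilp5 in OK107 and 9.49 FPKM in R57C10. The diuretic hormone gene Dh had 840 and 811 FPKM in OK107 and 82.8 FPKM in R57C10. For each of these 4 genes the OK107 libraries were more than 9-fold above R57C10, and their calls held in every fit that tested them. Of 10 tested neurosecretory genes 6 were higher and 1 lower, against 6 and 2 after median centring and 7 and 2 without Tdc2 a or Tdc2 b.

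The remaining peptide genes went both ways. Dsk, the drosulfakinin gene, had 29.9 and 28.2 FPKM in OK107 and 14.01 FPKM in R57C10, and the peptidergic cell regulator gene dimm had 2.35 and 2.55 FPKM in OK107 and 0.611 FPKM in R57C10. Both calls were lost without either OK107 library. Mip was lower, with 2.05 and 2.26 FPKM in OK107 and 11.2 FPKM in R57C10 (adjusted p = 0.0053). The myosuppressin gene Dms, among the 12 genes with the highest levels in OK107, had 1418 and 1618 FPKM there and 135 FPKM in R57C10. The neuropeptide F gene npf, picked after its values were seen, had 49.1 and 54.1 FPKM in OK107 and 3.76 FPKM in R57C10. Lower in OK107 were the tachykinin gene Tk, with 18.5 and 18.6 FPKM in OK107 and 93.4 FPKM in R57C10, and the hugin gene hug, with 9.96 and 8.84 FPKM in OK107 and 38.1 FPKM in R57C10. Peptides of the circadian and corazonin neurons did not pass, with 8.78 and 10.8 FPKM for Pdf in OK107 and 13.6 FPKM in R57C10, and with 9.33 and 11.9 FPKM for Crz in OK107 and 13.7 FPKM in R57C10.

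Machinery for peptide secretion was listed as well. Of 15 tested genes of peptide processing and dense core vesicles 4 were higher and 1 lower, shares of 26.7% and 6.7% beside 21.4% and 3.56% of all genes. The counts were 3 and 6 after median centring, 1 and 0 without OK107 a or OK107 b, 7 and 4 without Tdc2 a and 7 and 5 without Tdc2 b. Rab27, a vesicle GTPase gene, had 12.1 and 9.14 FPKM in OK107 and 2.35 FPKM in R57C10. The amidating enzyme gene Phm had 86.3 and 90.0 FPKM in OK107 and 46.9 FPKM in R57C10, and the convertase chaperone gene 7B2 had 413 and 455 FPKM in OK107 and 240 FPKM in R57C10. Caps, which acts in dense core vesicle release, had 258 and 241 FPKM in OK107 and 405 FPKM in R57C10. Of these 4 calls that of Rab27 held without each OK107 library and the other 3 did not. Receptors of neuropeptides were split, with 5 higher and 6 lower of 29 tested, 3 and 16 after median centring, 0 and 2 without OK107 a or OK107 b, and 8 and 13 without Tdc2 a or Tdc2 b. The 5 and 6 of 29 are 17.2% and 20.7%, beside 21.4% and 3.56% of all genes. The allatostatin A receptor gene AlstR had 9.78 and 9.09 FPKM in OK107 and 35.1 FPKM in R57C10, and the Pdf receptor gene Pdfr had 16.0 and 15.03 FPKM in OK107 and 42.8 FPKM in R57C10. Higher in OK107 were the cholecystokinin-like receptor gene CCKLR-17D1, with 14.97 and 13.8 FPKM in OK107 and 5.96 FPKM in R57C10, and CG12370, a receptor gene for Dh, with 34.1 and 37.2 FPKM in OK107 and 16.2 FPKM in R57C10.

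Single genes of the Wnt and TGF-beta pathways differed widely in both directions. The Wnt gene wg had 10.9 and 10.2 FPKM in OK107, against 0.144 FPKM in R57C10 (log2 difference 3.33 ± 0.18 SE, adjusted p = 0.0020). Its neighbour in the genome Wnt6 had 11.1 and 11.2 FPKM in OK107 and 0.158 FPKM in R57C10. The Wnt target gene fz3, a frizzled receptor gene, had 8.12 and 8.65 FPKM in OK107 and 1.69 FPKM in R57C10, and the BMP ligand gene dpp had 12.3 and 12.6 FPKM in OK107 and 1.99 FPKM in R57C10. All 4 calls held in every fit that tested the gene, and wg was below the filter without OK107 a or OK107 b. In the other direction Wnt4 had 2.70 and 2.30 FPKM in OK107 and 11.99 FPKM in R57C10, and the glypican gene dally had 45.3 and 47.1 FPKM in OK107 and 105 FPKM in R57C10. Of 41 tested genes of the Wnt and TGF-beta pathways 11 were higher and 5 lower, against 6 and 10 after median centring, 7 and 7 with quantile normalization, and 4 and 2 without OK107 a, 3 and 2 without OK107 b, 14 and 9 without Tdc2 a or Tdc2 b, and 8 and 2 with spike-in status as a term. The 11 of 41 are 26.8%, beside 21.4% of all genes.

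Notch and receptor tyrosine kinase genes also held single wide differences. Of the tested Notch pathway genes 40.0% were higher and 0.0% lower, and of receptor tyrosine kinase genes and ligands 22.9% and 8.6%. Of all genes tested 21.4% were higher and 3.56% lower. The glycosyltransferase gene fng, whose product modifies Notch, had 18.4 and 21.9 FPKM in OK107 and 1.096 FPKM in R57C10. HLHmbeta, a target gene of Notch, had 4.597 and 4.75 FPKM in OK107 and 0.400 FPKM in R57C10, and the receptor gene N itself had 5.77 and 6.37 FPKM in OK107 and 1.94 FPKM in R57C10. The calls of fng and HLHmbeta held in every fit that tested them, and that of N was lost without either OK107 library and with quantile normalization. Of 20 tested Notch pathway genes 8 were higher and 0 lower, 4 and 3 after median centring, 3 and 2 with quantile normalization, 3 and 0 without OK107 a or OK107 b, and 14 and 2 without Tdc2 a or Tdc2 b. The FGF ligand gene bnl had 20.5 and 20.3 FPKM in OK107 and 3.65 FPKM in R57C10. The ligand gene jeb of the kinase Alk was lower, with 83.1 and 86.1 FPKM in OK107 and 154 FPKM in R57C10, a call lost without either OK107 library. Among 35 genes of receptor tyrosine kinases and their ligands 8 were higher and 3 lower, against 5 and 9 after median centring, 4 and 4 with quantile normalization, 2 and 0 without OK107 a or OK107 b, 14 and 6 without Tdc2 a or Tdc2 b, and 18 and 3 with date tag as a term.

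A few genes known from epithelial polarity are given as single values, and ft and fj among them were picked after their values were seen. The protocadherin gene ds had 6.05 and 5.98 FPKM in OK107 and 0.389 FPKM in R57C10, and its partner ft had 3.66 and 3.40 FPKM in OK107 and 0.393 FPKM in R57C10. The kinase gene fj, which acts on both proteins, had 4.36 and 3.47 FPKM in OK107 and 0.172 FPKM in R57C10. The calls of ft and fj were lost without either OK107 library, and that of ds held throughout the alternative fits. The epidermal transcription factor gene grh had 16.2 and 16.5 FPKM in OK107 and 2.71 FPKM in R57C10, and the snail-family gene esg had 3.60 and 3.31 FPKM in OK107 and 0.332 FPKM in R57C10. Of 13 tested proneural and neuroblast genes, which include grh and esg, 4 were higher and 2 lower, against 2 and 5 after median centring, 1 and 0 without OK107 a, 1 and 1 without OK107 b, 6 and 3 without Tdc2 a, and 5 and 3 without Tdc2 b. The 4 and 2 of 13 are 30.8% and 15.4%, beside 21.4% and 3.56% of all genes. Whole brain levels of wg, Wnt6, ds, ft and fj were between 0.0566 and 0.263 FPKM, as low as in R57C10, while fng had 22.2 FPKM in the whole brain, at the level of OK107. The part of epidermal nuclei in these differences was not tested.

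**Figure D3:**
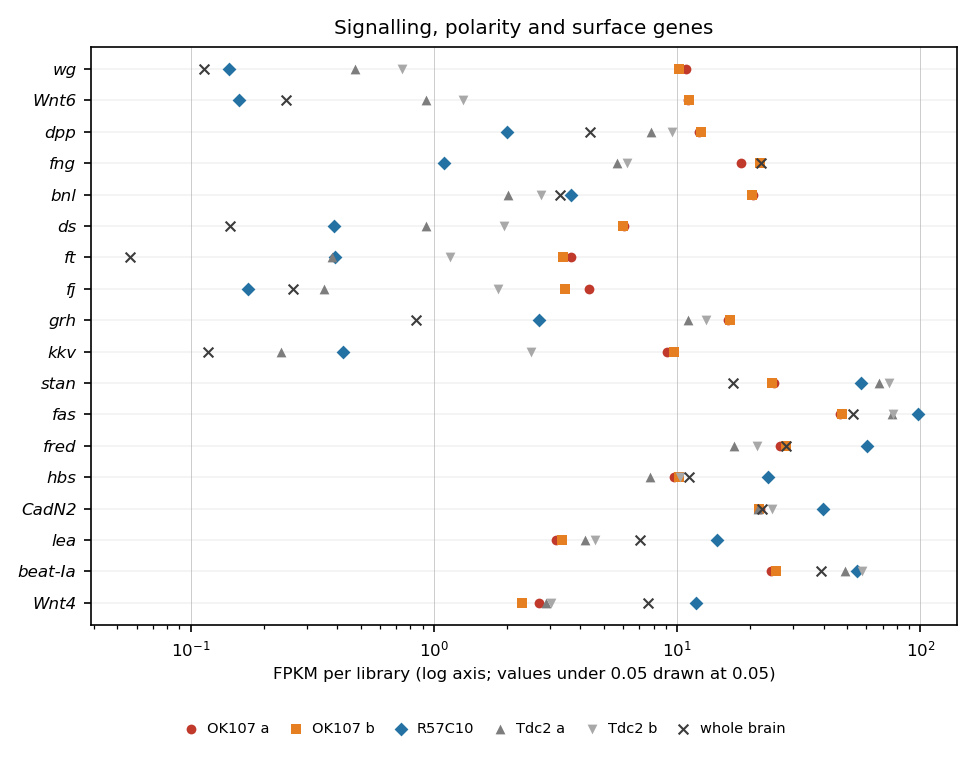
Level in FPKM (log axis) of 18 signalling, polarity and surface genes named in the text, 1 row a gene and 1 marker a library. From wg to kkv the OK107 markers lie right of R57C10, and from stan to Wnt4 they lie left of it.

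Several transcription factor genes were lower in OK107 than in R57C10. The cell types behind these differences were not tested. The POU-domain gene acj6, known from olfactory neurons, had 2.88 and 2.74 FPKM in OK107, against 31.9 FPKM in R57C10 (log2 difference -3.11 ± 0.15 SE, adjusted p = 0.0016). The homeobox gene scro had 22.3 and 22.6 FPKM in OK107 and 145 FPKM in R57C10, and the LIM-homeobox gene ap had 18.2 and 19.9 FPKM in OK107 and 85.8 FPKM in R57C10. The HMG-box gene Sox102F had 14.02 and 13.9 FPKM in OK107 and 64.0 FPKM in R57C10. Both OK107 libraries were more than 4-fold below R57C10 for each, and the 4 calls held in every fit that tested them. Of 56 tested homeobox genes outside the Hox clusters 17 were lower and 7 higher. These are 30.4% and 12.5%, beside 3.56% and 21.4% of all genes tested. Median centring, which shifted every difference down alike, gave 27 lower and 4 higher. Quantile normalization gave 24 lower and 5 higher. Over all genes the lower calls rose as well, from 341 to 1562 with median centring and to 663 with quantile normalization. Far fewer members passed without OK107 a or without OK107 b. Without Tdc2 a 23 were lower and 11 higher, and without Tdc2 b 24 were lower and 11 higher. The median of the list lay 0.54 below that of all genes.

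The lower homeobox genes spanned several families. The gene bsh had 0.660 and 0.917 FPKM in OK107 and 8.64 FPKM in R57C10, and pdm3 had 22.4 and 21.7 FPKM in OK107 and 48.8 FPKM in R57C10. The genes caup, Awh, hbn, otp, Ptx1, ara, mirr, Lim1, vvl, ct, zfh2 and CG32532 were lower by between 0.60 and 1.34 on the log2 scale. Higher members beside ey and toy were the LIM-homeobox genes Lim3, with 26.1 and 26.9 FPKM in OK107 and 11.8 FPKM in R57C10, and tup, with 21.5 and 22.4 FPKM in OK107 and 10.3 FPKM in R57C10, and also toe, CG11294 and the glial gene repo. Of other transcription factor genes sim, erm and tj were picked for their lower values, so they add nothing to the count. The gene sim had 0.947 and 0.941 FPKM in OK107 and 9.06 FPKM in R57C10, erm had 2.55 and 2.24 FPKM in OK107 and 16.2 FPKM in R57C10, and tj had 1.48 and 0.988 FPKM in OK107 and 10.1 FPKM in R57C10. All 3 were more than 4-fold below R57C10 in both OK107 libraries.

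**Figure D4:**
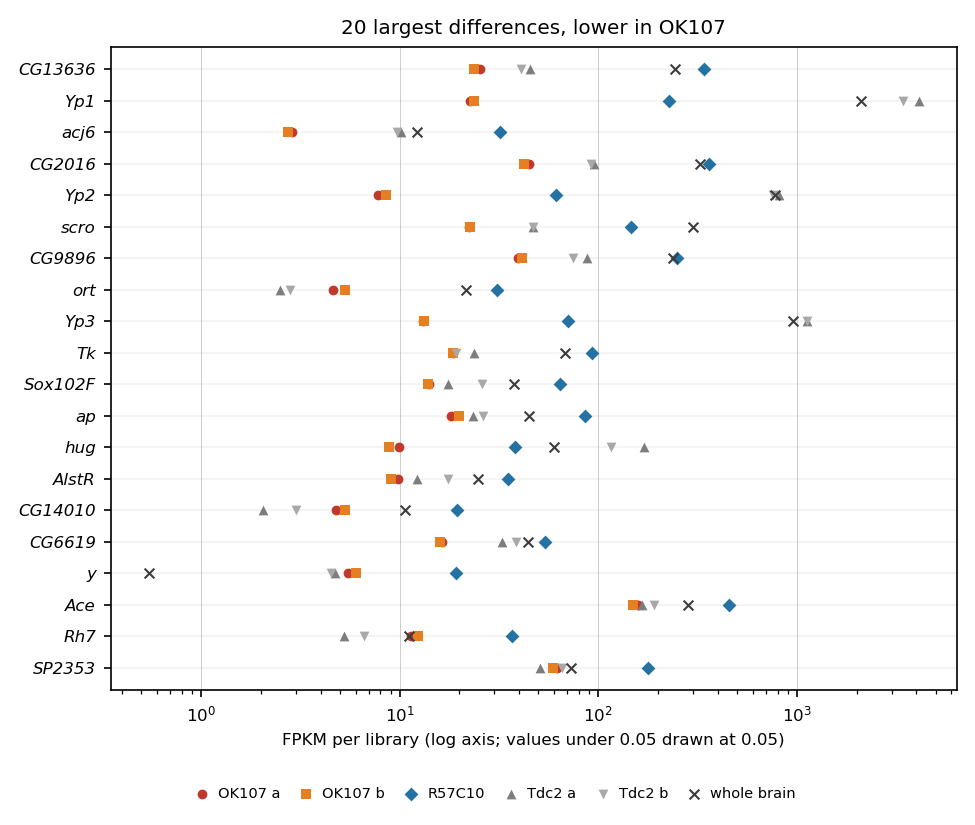
Level in FPKM (log axis) of the 20 genes with the largest differences lower in OK107, 1 row a gene and 1 marker a library. OK107 a and b lie together left of R57C10 in every row, and the 3 yolk protein genes Yp1, Yp2 and Yp3 are highest in the Tdc2 and whole brain libraries.

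Both OK107 libraries were at least 2-fold below R57C10 for 2.01% of all genes tested. The 20 largest lower differences among them passed in every fit that tested them. The first was CG13636, with 25.3 and 23.8 FPKM in OK107, against 341 FPKM in R57C10 (log2 difference -3.74 ± 0.13 SE, adjusted p = 0.0014). CG2016 had 44.7 and 42.3 FPKM in OK107 and 360 FPKM in R57C10, and CG9896 had 39.6 and 41.5 FPKM in OK107 and 251 FPKM in R57C10. Both OK107 libraries were below 20% of R57C10 in these 3 genes. The histamine receptor gene ort, which visual interneurons use to receive photoreceptor input, had 4.62 and 5.33 FPKM in OK107 and 30.8 FPKM in R57C10. The acetylcholinesterase gene Ace had 159 and 150 FPKM in OK107 and 456 FPKM in R57C10, and the opsin gene Rh7 had 11.4 and 12.4 FPKM in OK107 and 36.8 FPKM in R57C10. The pigmentation gene y had 5.50 and 6.004 FPKM in OK107 and 19.3 FPKM in R57C10, with 0.547 FPKM in the whole brain.

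Yolk protein genes stood apart from the rest of the lower set. Yp1 had 22.6 and 23.7 FPKM in OK107 and 227 FPKM in R57C10, Yp2 had 7.80 and 8.50 FPKM in OK107 and 61.0 FPKM in R57C10, and Yp3 had 13.1 and 13.3 FPKM in OK107 and 70.4 FPKM in R57C10. In the whole brain Yp1 had 2113 FPKM and in Tdc2 a and b it had 4104 and 3428 FPKM, so the 3 libraries compared here were the lowest of the 6. These genes are made by the female fat body. The dosage compensation RNA gene roX1, which males express, had 6.53 and 7.15 FPKM in OK107 and 6.27 FPKM in R57C10 and did not pass, while roX2 stayed below 0.5 FPKM and was not tested. Among 10 tested genes that differ between the sexes, which include the yolk proteins, 3 were lower and 1 higher, against 5 and 1 after median centring and 4 and 2 without Tdc2 a or Tdc2 b, and the higher one was dsx with 12.2 and 13.4 FPKM in OK107 and 3.27 FPKM in R57C10.

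Adhesion molecules passed in both directions, and the balance between them depended on the libraries used. Of 45 tested cell adhesion genes 16 were lower and 6 higher, with a median 0.56 below that of all genes. These are 35.6% and 13.3%, beside 3.56% and 21.4% of all genes. The seven-pass cadherin gene stan had 25.0 and 24.6 FPKM in OK107, against 56.99 FPKM in R57C10 (log2 difference -1.17 ± 0.12 SE, adjusted p = 0.0061). The immunoglobulin-family genes fred, with 26.41 and 28.102 FPKM in OK107 and 60.3 FPKM in R57C10, and fas, with 46.5 and 47.5 FPKM in OK107 and 97.5 FPKM in R57C10, were lower by a similar step. The nephrin-like gene hbs had 9.71 and 10.2 FPKM in OK107 and 23.6 FPKM in R57C10, and its relatives sns, kirre and rst were lower as well. The other lower members were CadN2, Ten-m, kek2, kek5, klg, Con, neuroligin, CG34139 and Dscam2. Only the call of stan among the 16 held in every fit that tested it. Without OK107 a 1 was lower and 3 higher, without OK107 b 1 was lower and 2 higher, without Tdc2 a 25 were lower and 11 higher, and without Tdc2 b 26 were lower and 11 higher. Median centring gave 26 lower and 4 higher, the date tag as a term 16 and 13, and spike-in status as a term 9 and 7.

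Higher adhesion members were ds and ft, the E-cadherin gene shg, Fas2, wrapper and CG16857. Fas2, an axonal adhesion gene of the mushroom body lobes, had 99.2 and 97.1 FPKM in OK107 and 63.9 FPKM in R57C10. CG16857, known as borderless, had 25.2 and 26.2 FPKM in OK107, 5.85 FPKM in R57C10 and 144 FPKM in the whole brain. Of 31 tested axon guidance genes 2 were higher and 4 lower, against 1 and 16 after median centring, 2 and 6 with quantile normalization, 1 and 1 without OK107 a or OK107 b, 5 and 10 without Tdc2 a, 5 and 11 without Tdc2 b, and 8 and 4 with date tag as a term. The 2 and 4 of 31 are 6.5% and 12.9%, beside 21.4% and 3.56% of all genes. The Slit receptor gene lea had 3.18 and 3.38 FPKM in OK107 and 14.6 FPKM in R57C10, and beat-Ia had 24.3 and 25.4 FPKM in OK107 and 55.05 FPKM in R57C10. Sema-5c was higher, with 6.30 and 6.64 FPKM in OK107 and 0.882 FPKM in R57C10. The surface receptor genes of the DIP family, grouped after their values were seen, had 4 lower and 0 higher of 9 tested, 6 lower after median centring, 2 lower without OK107 a or OK107 b, and 6 lower and 1 higher without Tdc2 a or Tdc2 b. The largest of them was CG14010, DIP-eta, with 4.80 and 5.31 FPKM in OK107 and 19.5 FPKM in R57C10.

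Genes of learning and memory, of which rut, dnc, Fas2 and 14-3-3zeta are also on the Kenyon cell list, passed in a minority. Shares of 27.6% higher and 6.9% lower stood beside 21.4% and 3.56% of all genes. Of 29 tested 8 were higher and 2 lower, against 2 and 9 after median centring, 4 and 2 with quantile normalization, 2 and 0 without OK107 a or OK107 b, and 11 and 7 without Tdc2 a or Tdc2 b. The memory gene pst had 17.4 and 17.1 FPKM in OK107 and 3.91 FPKM in R57C10 (adjusted p = 0.0047), and rad, a regulator gene of Rap GTPase, had 62.7 and 64.7 FPKM in OK107 and 41.7 FPKM in R57C10. The call of pst held throughout, and that of rad was lost without either OK107 library, after median centring and with quantile normalization. The synapsin gene Syn had 151 and 146 FPKM in OK107 and 210 FPKM in R57C10, and its call was lost without either OK107 library. For dnc, the cyclic AMP phosphodiesterase, 150 and 147 FPKM in OK107 and 114 FPKM in R57C10 did not pass (adjusted p = 0.072).

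Calcium signalling genes were divided, with 5 higher and 4 lower of 26 tested, 2 and 7 after median centring, none without OK107 a or OK107 b, 10 and 6 without Tdc2 a and 9 and 6 without Tdc2 b. The 5 and 4 of 26 are 19.2% and 15.4%, beside 21.4% and 3.56% of all genes. The protein kinase C gene Pkc53E had 225 and 215 FPKM in OK107 and 115.3 FPKM in R57C10. The ryanodine receptor gene Rya-r44F had 21.5 and 21.4 FPKM in OK107 and 38.0 FPKM in R57C10, and the scaffold gene CASK had 276 and 265 FPKM in OK107 and 461 FPKM in R57C10. Cam, the calmodulin gene, had 1343 and 1394 FPKM in OK107 and 1361 FPKM in R57C10. Of 15 tested genes of G proteins and their regulators 5 were higher and 0 lower, with 2 and 1 after median centring, 1 and 0 without OK107 a or OK107 b, and 9 and 1 without Tdc2 a or Tdc2 b. The 5 of 15 are 33.3%, beside 21.4% of all genes. Gbeta76C, the subunit used in phototransduction, had 37.8 and 34.9 FPKM in OK107 and 8.41 FPKM in R57C10.

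Regulators of RNA held single genes with clear differences. Of the tested members 12.5% were higher and 5.0% lower, beside 21.4% and 3.56% of all genes. Thor, a translation repressor gene, had 59.5 and 66.3 FPKM in OK107, against 9.91 FPKM in R57C10 (log2 difference 2.55 ± 0.13 SE, adjusted p = 0.0018). The RNA-binding gene how had 17.3 and 16.6 FPKM in OK107 and 3.90 FPKM in R57C10, while Rbp6 had 257 and 268 FPKM in OK107 and 566 FPKM in R57C10, and heph had 126 and 128 FPKM in OK107 and 244 FPKM in R57C10. The calls of Thor and how held in every fit, that of Rbp6 was lost without OK107 a and that of heph without either OK107 library. Of 40 tested genes of RNA binding and translation control 5 were higher and 2 lower, against 3 and 16 after median centring, 4 and 2 with quantile normalization, 2 and 0 without OK107 a, 2 and 1 without OK107 b, and 16 and 12 without Tdc2 a or Tdc2 b.

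Components of the proteasome were higher together in OK107 than in R57C10. All 32 tested members had both OK107 libraries above R57C10, which was so for 70.1% of all genes tested. As higher 23 passed and as lower 0, with a median 0.69 above that of all genes. The 23 of 32 are 71.9%, beside 21.4% of all genes. The catalytic-core gene Prosbeta5 had 9.37 and 9.55 FPKM in OK107 and 2.51 FPKM in R57C10, and its call alone held in every fit. Prosalpha1 had 12.9 and 13.7 FPKM in OK107 and 3.86 FPKM in R57C10, and the lid gene Rpn9 had 15.2 and 15.7 FPKM in OK107 and 6.61 FPKM in R57C10. The summed level was 445 and 469 FPKM in OK107, 231 FPKM in R57C10, 382 and 321 FPKM in Tdc2 a and b, and 694 FPKM in the whole brain. After median centring 9 passed as higher, with quantile normalization 7, without OK107 a 3 and without OK107 b 2, and none was lower in any of these.

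Nuclear-encoded genes of oxidative phosphorylation had 14 higher and 0 lower of 34 tested, with a median 0.31 above that of all genes. With date tag as a term that excess was 0.0095, with 12 higher and 1 lower. Their summed level was 2037 and 2179 FPKM in OK107 and 1510 FPKM in R57C10. It was 2819 and 2350 FPKM in Tdc2 a and b and 6501 FPKM in the whole brain. Of these genes 41.2% were higher, and of the ion pump and transporter genes below 38.1%, beside 21.4% of all genes. The ATP synthase gene ATPsyn-beta had 313 and 311 FPKM in OK107 and 194 FPKM in R57C10, and the Rieske subunit gene RFeSP had 63.7 and 59.0 FPKM in OK107 and 30.7 FPKM in R57C10. None of the 34 passed after median centring or without OK107 a or OK107 b, 3 were higher with quantile normalization, and 27 were higher without Tdc2 a or Tdc2 b. Ion pump and transporter genes had 8 higher and 1 lower of 21, against 4 and 4 after median centring, 2 and 0 without OK107 a or OK107 b, 12 and 4 without Tdc2 a or Tdc2 b, and 14 and 2 with date tag as a term. The sodium pump subunit gene nrv1 had 48.4 and 53.9 FPKM in OK107 and 6.84 FPKM in R57C10, whereas the neuronal subunit gene nrv3 had 2251 and 2137 FPKM in OK107 and 2625 FPKM in R57C10 and did not pass. The calcium exchanger gene Nckx30C was lower, with 611 and 589 FPKM in OK107 and 1062 FPKM in R57C10, a call lost without either OK107 library.

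Small RNA and chromatin genes gave calls that hung on the scaling. Of all genes tested 21.4% were higher and 3.56% lower. The shares were 18.8% and 0.0% for small RNA genes and 12.2% and 0.0% for chromatin genes. For genes of chromosome 4 they were 24.1% and 10.3%. Of 16 tested small RNA pathway genes 3 were higher, namely Dcr-2, loqs and r2d2, and 0 lower, but after median centring 0 were higher and 1 was lower. Dcr-2, the dicer of small interfering RNA, had 18.1 and 17.8 FPKM in OK107 and 9.32 FPKM in R57C10. Of 41 genes of Polycomb, Trithorax and histone modifiers 5 were higher and 0 lower, against 0 and 7 after median centring and 0 and 1 with quantile normalization. The remodeller gene brm had 21.8 FPKM in each OK107 library and 12.7 FPKM in R57C10. Neither list had a call without OK107 a or OK107 b. Without Tdc2 a or Tdc2 b 6 small RNA genes were higher, and 13 chromatin genes were higher with 4 lower without Tdc2 a and 3 lower without Tdc2 b. Genes of chromosome 4, which carries ey and the OK107 insertion, had 7 higher and 3 lower of 29 tested, with a median 0.31 below that of all genes, 3 and 13 after median centring, 1 and 1 without OK107 a or OK107 b, and 9 and 10 without Tdc2 a or Tdc2 b.

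Markers of other cell types of the head were measured beside these results. Of the photoreceptor markers tested 71.4% were higher, and of the eye pigment and lens cell markers 33.3%, beside 21.4% of all genes. Photoreceptor markers had 10 higher and 0 lower of 14 tested, against 6 and 1 after median centring, 7 and 0 with quantile normalization, and 5 and 0 without OK107 a or OK107 b. Their summed level was 1608 and 1612 FPKM in OK107, 834 FPKM in R57C10, 6486 and 5537 FPKM in Tdc2 a and b, and 554 FPKM in the whole brain. The major opsin gene ninaE had 911 and 895 FPKM in OK107 and 469 FPKM in R57C10, Rh5 had 20.4 and 18.6 FPKM in OK107 and 3.82 FPKM in R57C10, and the arrestin gene Arr2 had 175 and 174 FPKM in OK107 and 50.8 FPKM in R57C10. None of the 14 was at 0 in any of the 3 libraries. Among 9 genes of eye pigment and lens cells 3 were higher and 1 lower, against 8 and 1 without Tdc2 a or Tdc2 b and 5 and 1 with date tag as a term. The corneal lens gene retinin had 214 and 263 FPKM in OK107 and 22.4 FPKM in R57C10. The pigment transporter gene w had 140 and 151 FPKM in OK107 and 26.3 FPKM in R57C10. In Tdc2 a and b w had 29.1 and 39.1 FPKM, against 0.43 FPKM in the whole brain, which carried no tag. The part of the transgenes in the level of w was not tested.

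Glial markers had 7 higher and 0 lower of 12 tested, against 3 and 0 after median centring, 2 and 0 with quantile normalization, 2 and 0 without OK107 a, 1 and 0 without OK107 b, and 11 and 0 without Tdc2 a or Tdc2 b. Of the tested glial markers 58.3% were higher, beside 21.4% of all genes. The summed level of 13 members was 369 and 381 FPKM in OK107, 247 FPKM in R57C10 and 3868 FPKM in the whole brain. The glial regulator gene repo had 3.54 and 3.38 FPKM in OK107, 1.57 FPKM in R57C10 and 21.3 FPKM in the whole brain. The glutamine synthetase gene Gs2 had 99.4 and 106 FPKM in OK107 and 36.8 FPKM in R57C10, and its call held throughout. Muscle markers had 1 higher and 0 lower of 12, with a summed level of 183 and 185 FPKM in OK107 and 112 FPKM in R57C10, and that call, of bt, was lost without either OK107 library. Without Tdc2 a or Tdc2 b 8 muscle markers were higher, and all 12 were in the fit that models date tag. Fat body markers had 2 higher and 3 lower of 9, against 1 and 5 after median centring, the lower ones being the yolk protein genes. Their summed level was 157 and 155 FPKM in OK107 and 476 FPKM in R57C10. The hemocyte markers had a sum of 96.5 and 100.2 FPKM in OK107 and 83.6 FPKM in R57C10, most of it from crq, which did not pass. The hemocyte gene Hml had 2.38 and 2.17 FPKM in OK107 and 2.04 FPKM in R57C10 and did not pass. Among 9 olfactory sensory neuron markers with values, 6 were under 1 FPKM in all 3 libraries and 1 of the 2 tested, Pbprp2, was higher. The part of these cell types in the differences was not tested.

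**Figure D5:**
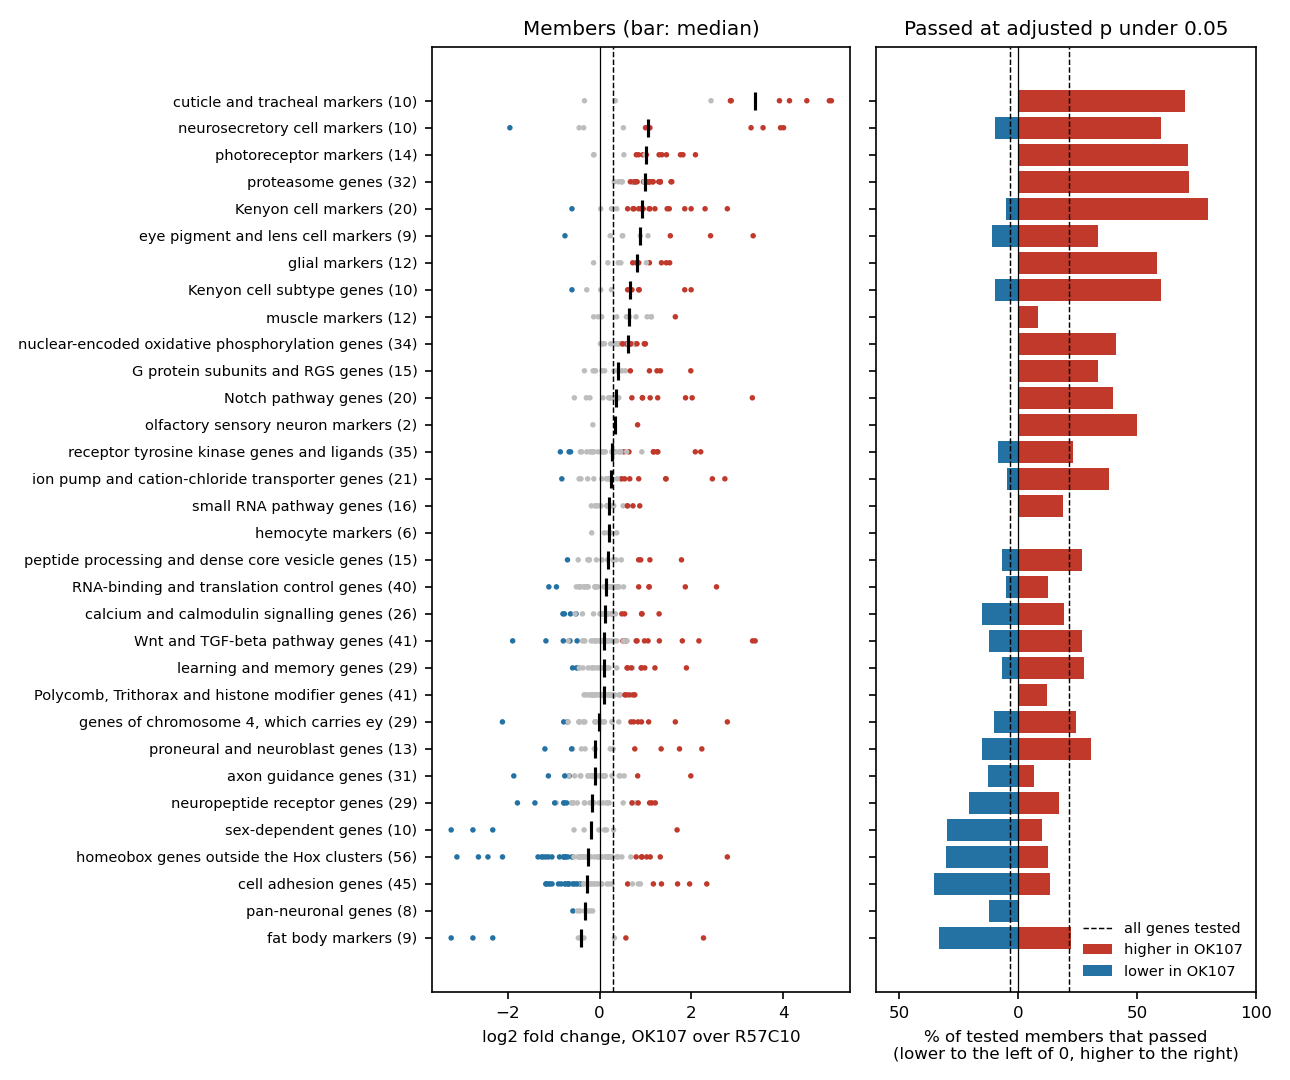
Left, the log2 fold change of OK107 over R57C10 for each tested member of the gene lists shown, with red for higher, blue for lower, grey for not passed and a bar at the list median. Right, the percentage of tested members that passed each way, with dashed lines at the values over all genes tested (21.4% higher, 3.56% lower). Cuticle and tracheal markers have the highest median, and after median centring of the libraries higher calls became fewer or lower calls more in most lists.

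The other libraries placed these differences in the series. Of the 219 genes at least 4-fold higher in OK107, the OK107 pair was the highest of all 6 libraries for 174, or 79.5%, where this was so for 26.9% of all genes tested with values in every library. The whole brain was at least 4-fold below OK107 for 148 of the 219, or 67.6%, against 14.6% of all genes. It was within 2-fold of OK107 or above it for 48 of them, or 21.9%, against 74.8% of all genes. R57C10 was the lowest of the 6 libraries for 111, or 50.7%, against 32.4% of all genes. Of the 133 genes at least 2-fold lower, the OK107 pair was the lowest of the 6 for 67, or 50.4%, against 4.29% of all genes. R57C10 was the highest for 96 of them, or 72.2%, against 14.7%. Both sets were chosen by OK107 against R57C10, so their shares are in part fixed by that choice and cannot serve as support.

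The authors' deposited table holds a Cuffdiff comparison of OK107 b with R57C10. It lists 1190 fly genes with a q-value under 0.05, 1046 of them higher and 144 lower in OK107 b. Of these, 978 also passed in limma in the same direction, which is 82.2% of the calls in the authors' deposited table and 41.0% of the limma calls. All 20 of the largest higher and all 20 of the largest lower genes carried such a q-value in the authors' deposited table. The comparisons share their libraries, so this overlap is a comparison of methods.

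The genes at the highest levels in OK107 nuclei were in large part shared with R57C10. Behind Nplp3 came 14-3-3zeta, a regulator of memory signalling, with 2345 and 2506 FPKM in OK107 and 1287 FPKM in R57C10, and then nrv3. The complexin gene cpx had 1991 and 2056 FPKM in OK107 and 2266 FPKM in R57C10, and the sodium pump gene Atpalpha had 1696 and 1748 FPKM in OK107 and 2280 FPKM in R57C10, and neither passed. The noncoding RNA gene noe had 1395 and 2007 FPKM in OK107, 529 FPKM in R57C10 and 14595 FPKM in the whole brain. CG12239 had 1185 and 1164 FPKM in OK107 and 345 FPKM in R57C10. The remaining genes of the 12 were Fas1, miple and Appl, which did not pass, with Dms and Cam given above. Thus 5 of the 12 passed, all of them higher in OK107, namely Nplp3, 14-3-3zeta, noe, Dms and CG12239. The call of 14-3-3zeta was lost after median centring and without either OK107 library. That of Nplp3 was also lost without either OK107 library.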

How the data were processed

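Nuclear RNA was converted to cDNA with a NuGEN Ovation kit and sequenced in 50-base reads, per the labels' protocols. CASAVA 1.8, TopHat 1.4.0, Cuffdiff 1.3.0, bedtools 2.15 and genome build dm3 are named by the submitters' processing notes. FPKM per gene was estimated by the authors and deposited for 6 libraries, with no value for 506 to 572 genes in a library. Adjusted p-values (q-values) of OK107 b against R57C10 were deposited by the authors where under 0.05. Columns of other series numbered 0. The annotation at hand is of another build, so no coordinates or sequences are given, and overlapping or nearly identical genes are uncertain because strand use in counting is not given in the sources used here.

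The test was limma 3.58.1, run under R 4.3.3 with the trend and robust options of eBayes, on log2(FPKM + 1). It took genes that reached 1 FPKM in 2 or more of the 5 libraries of OK107, R57C10 and Tdc2, with 2 residual degrees of freedom and Benjamini-Hochberg adjustment over 9585 genes. The single R57C10 library was taken to have the spread of the OK107 and Tdc2 pairs. The design allowed for counts or FPKM, and FPKM was found. The scripts were tested on simulated data. Depth was read from steps between low values of 5874 genes with 1 transcript of at least 600 bases, where 61.1% to 69.2% of these values came within 0.2 of whole reads and chance gives 40%, so depths are estimates and no read counts were recovered.

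Genes named are the 20 largest passed differences each way (both OK107 libraries at least 2-fold from R57C10, mean of at least 10 FPKM), up to 6 members a list by smallest p and all passed members of lists of up to 12, the 12 highest in OK107, genes at 20 FPKM against under 1, and label checks. All other genes named were picked after their values were seen, further members of the lists included, such as trio, mamo, dnc, trh, btl, Pdf and Crz. The lists and rules were chosen with earlier results of these data known. Alternatives were other pseudocounts (0.1 and 5), filters (none, and 5 FPKM), median centring, quantile normalization, each replicate left out, OK107 and R57C10 alone, all 6 libraries, no trend, and spike-in status or date tag as a term. A gene list is not reported here.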

Additional observations from a re-analysis of the deposited data

Results flagged for a closer look

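Spike-in RNA species, which enter no comparison, had values above 0 in 70 of 92 cases in OK107 b and in 60 of 92 in R57C10, while OK107 a had 0. The OK107 libraries thus differ in whether spike-in RNA was counted. With spike-in status as a term 1657 genes were higher in OK107 and 232 lower.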

How the results depend on the processing

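With quantile normalization 1422 genes passed, 759 higher and 663 lower, and 465 were at least 2-fold higher and 311 at least 2-fold lower. Median centring gave 792 higher and 1562 lower, with 487 and 484 at least 2-fold. A pseudocount of 5 gave 388 at least 2-fold higher and 72 lower. OK107 and R57C10 alone gave 5746, 4600 higher and 1146 lower. Leaving out 1 library in turn gave between 481 and 5712 genes, between 413 and 4568 higher and between 66 and 1148 lower, and between 413 and 1120 at least 2-fold higher and between 66 and 144 at least 2-fold lower. The lowest counts came without an OK107 library, where the Tdc2 pair alone gives the spread, and the highest without a Tdc2 library, where the OK107 pair alone gives it. Other filters, a pseudocount of 0.1, all 6 libraries, no trend, spike-in status and date tag kept these counts within 1.5 times. Among the single genes named, 1 changed direction with a call: in the fit that models date tag, Cam passed as lower, at -0.33 with an adjusted p of 0.0317. The cause was not tested, and in that fit the date term rests on the Tdc2 pair alone. No paired analysis was possible because the columns carry no replicate numbers and R57C10 has 1 library, so the fit with the replicate block was not run. R57C10 has no replicate, so its own error is unknown. Depth limits genes under 1 FPKM.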

Other observations

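A few further gene groups, picked after their values were seen, differed between the libraries. The immune peptide genes CG33470 and IM10, nearly identical copies whose reads may be split between them, had 31.9 and 37.1 FPKM for CG33470 in OK107 and 1.71 FPKM in R57C10, and 31.5 and 36.8 FPKM for IM10 in OK107 and 1.75 FPKM in R57C10. Both were higher in every fit that tested them, and the whole brain had 26.8 FPKM for CG33470. The 4 seminal fluid protein genes of the Sfp24B group, Sfp24Ba, Sfp24Bb, Sfp24Bc and CG42463, were all lower, with a summed level of 3.64 and 5.03 FPKM in OK107, against 35.4 FPKM in R57C10 and 6.73 FPKM in the whole brain. Neighbouring copies may share reads here as well. The calcium-binding protein gene Scp1 had 41.7 and 35.5 FPKM in OK107 and 2.15 FPKM in R57C10, and the Wnt inhibitor gene Notum had 5.22 and 4.90 FPKM in OK107 and 0.423 FPKM in R57C10. Among transcription factors the homeobox gene CG34340, known as Drgx, had 1.66 and 2.07 FPKM in OK107 and 11.3 FPKM in R57C10, the forkhead gene fkh had 2.16 and 2.42 FPKM in OK107 and 11.0 FPKM in R57C10, and the GATA factor gene grn had 5.82 and 6.01 FPKM in OK107 and 17.6 FPKM in R57C10. The surface receptor gene CG31646, DIP-theta, had 11.1 and 12.6 FPKM in OK107 and 32.1 FPKM in R57C10. These differences passed in every fit that tested the genes.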
